A study of Mus musculus with 16 samples.

Results

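Foxo1, Foxo3 and Foxo4 encode forkhead box O (FoxO) transcription factors, and their transcripts were followed in the gastrocnemius of mice with cancer cachexia (CAC), the loss of muscle and fat that accompanies a tumor. The 3 genes were chosen by symbol from the 21923 genes of the deposited table, and each was measured in all 16 mice. The NOR group held 4 mice without a tumor, and the CAC group held 4 tumor-bearing mice. By the study's methods, NOR, CAC and KD mice all received PBS every day, starting on day 9. The AM group held 4 tumor-bearing mice that received PBS with 2 mg/kg amiloride, a potassium-sparing diuretic, each day. The KD group held 4 mice that were inoculated with tumor cells in which Rab27 (by the study's methods Rab27a and Rab27b, genes that act in exosome release) had been knocked down. In every group, replicates 1 and 2 are labelled C57BL/6, the strain given LLC lung carcinoma cells, and replicates 3 and 4 are labelled BALB/c, the strain given CT26 colon carcinoma cells. The mice were adult, and the sources differ on sex, since the labels' protocol names male C57BL/6 and both sexes of BALB/c mice and the study's methods name males of both strains. The sex of each mouse was not used here, and the muscle was taken on day 30. Strain and tumor line cannot be told apart, and because Rab27 was lowered in the tumor and not in the host, muscle values do not check the knock-down.

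FoxO factors bind DNA through a forkhead domain and act mainly as activators. When insulin or IGF-1 activates PI3K and Akt, Akt phosphorylates the FoxO proteins, which are then held outside the nucleus by 14-3-3 proteins. When this signal falls, they enter the nucleus and activate genes of protein breakdown, autophagy and fuel use, and in skeletal muscle they are best known for driving the ubiquitin ligases Atrogin-1 (Fbxo32) and MuRF1 (Trim63). The values here are transcript levels, and phosphorylation and location of the proteins were not analysed here.

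In GENCODE M21 on GRCm38, Foxo1 (ENSMUSG00000044167) lies on chromosome 3 from 52268336 to 52353221 on the plus strand, with 1 transcript of 3 exons. Foxo3 (ENSMUSG00000048756) lies on chromosome 10 from 42181841 to 42276755 on the minus strand, with 5 coding transcripts. Foxo4 (ENSMUSG00000042903) lies on chromosome X from 101254528 to 101260873 on the plus strand, with 3 transcripts. Of the 31-base words of their transcripts, 8% were shared with another gene for Foxo1, 0.106% for Foxo3, and none of 3482 for Foxo4. Of the 691 shared words of Foxo1, 615 are those of the antisense gene model Gm20402, which overlaps its first exon, so reads from that stretch could be assigned to Foxo1 only if strand was used, which is not given in the sources used here. The stretches just before the gene start are shown for the 2 members that moved together and for Trim63, because the best known action of these factors is to bind the forkhead word GTAAACA, or its reverse complement TGTTTAC. They come from RefSeq (GRCm38.p6), are written from 5′ to 3′ on the strand of the gene, end before the first annotated exon base, and carry any forkhead word in capitals.
Foxo1 chr3:52268087-52268335 (+): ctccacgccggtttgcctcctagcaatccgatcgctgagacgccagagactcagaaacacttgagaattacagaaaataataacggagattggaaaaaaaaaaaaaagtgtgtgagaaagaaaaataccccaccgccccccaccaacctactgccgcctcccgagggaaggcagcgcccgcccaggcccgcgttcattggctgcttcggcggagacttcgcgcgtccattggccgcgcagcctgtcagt
Foxo3 chr10:42276756-42276945 (-): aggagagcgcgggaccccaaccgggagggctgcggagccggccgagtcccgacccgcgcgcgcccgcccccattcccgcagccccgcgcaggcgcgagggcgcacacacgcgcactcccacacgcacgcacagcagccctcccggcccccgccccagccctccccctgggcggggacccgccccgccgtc
Trim63 chr4:134314870-134315119 (+): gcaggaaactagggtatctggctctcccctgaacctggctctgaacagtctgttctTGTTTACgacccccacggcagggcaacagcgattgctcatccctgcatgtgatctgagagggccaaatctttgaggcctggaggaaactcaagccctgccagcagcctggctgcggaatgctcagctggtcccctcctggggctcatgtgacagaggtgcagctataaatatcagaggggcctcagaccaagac
Trim63 holds the word once, starting 194 bases before its start, whereas neither FoxO stretch holds it. Among all 32851 promoters of the table, 3.17% hold the word in the 250 bases before the start, compared with 3 of the 36 promoters found for 44 known FoxO target genes (Trim63, Bcl2l11 and Txnip). The word was in 1 of 12 promoters of targets called higher in CAC than in NOR mice (limits given below). For targets not called it was in 2 of 23. A match is only a description of the letters. The 2 printed FoxO stretches differ in composition, with 55.8% G and C for Foxo1 and 81.6% for Foxo3.

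Libraries held 35913190 to 61032708 counts, and the muscle fibre markers summed to between 102000 and 159000 CPM (counts scaled to library size) in NOR, 45100 and 106000 in CAC, 99500 and 121000 in AM, and 84900 and 141000 in KD libraries, lowest in CAC-3 and CAC-4 (45100 and 72400). CPM values here are also scaled by the trimmed mean of M values (TMM). The libraries stood apart in lymphocyte RNA: the summed CPM of 9 B and T cell markers was 0.34 to 3.09 in 5 libraries (NOR-1, CAC-1, CAC-4, KD-2 and KD-3) and 35.4 to 428 in the other 11. In CAC vs. NOR, 5 of 5 erythrocyte and 3 of 5 neutrophil markers rose, 1 of 6 endothelial (Pecam1) and 1 of 5 macrophage markers (Itgam) rose as well, and 2 of 5 fibroblast markers fell (Col1a1 and Col3a1). In bulk muscle, a change in the make-up of cells and a change of RNA per cell cannot be told apart.

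The 3 factors differed in level, and Foxo4 was the most abundant in every group. On FPKM, counts scaled by gene length and library size that allow genes to be set beside each other, Foxo4 averaged 51.1 ± 2.72 (SD, n = 4) in NOR muscle, Foxo3 18.6 ± 2.60, and Foxo1 5.81 ± 1.53. The order Foxo4, Foxo3, Foxo1 held in all 16 libraries, and the ranges of neighbours did not overlap within any group. This order rests partly on the lengths behind the deposited FPKM, which work out at 8665 bases for Foxo1, 2820 for Foxo3 and 2254 for Foxo4. With the longest annotated transcripts (8665, 6848 and 3162 bases) Foxo4 stayed highest in 16 of 16 libraries, but Foxo3 exceeded Foxo1 in only 11 of 16. On that scale, Foxo1 averaged 15.7 ± 1.23 and Foxo3 15.1 ± 1.78 CPM per kilobase in CAC muscle, with overlapping ranges. Hence, the rank of Foxo4 did not depend on the length used, whereas that of Foxo3 over Foxo1 did.

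Foxo1 rose in cachexia. It measured 45.0, 47.6, 46.2 and 67.4 CPM in NOR-1 to NOR-4, compared with 150, 137, 124 and 135 CPM in CAC-1 to CAC-4. The lowest CAC mouse was well above the highest NOR mouse. The change was 2.64-fold (95% interval 2.10 to 3.33), or 1.40 ± 0.15 on the log2 scale (SE), with an FDR of 0.00214 in edgeR's quasi-likelihood test. Foxo3, which shares targets in proteolysis and autophagy with Foxo1, measured 54.5, 49.1, 50.9 and 61.4 CPM in NOR mice and 116, 107, 87.0 and 104 CPM in CAC mice. These groups did not overlap either, and the change was 1.92-fold (1.60 to 2.30; FDR 0.00337). Without the 5 libraries low in lymphocyte markers the Foxo3 call was lost (log2 change 0.85, FDR 0.0514). Foxo1 and Foxo3 were therefore called, where a call needs an FDR no higher than 0.05 and a change of 1.5-fold or more upward, or to 0.67-fold or less. This makes 2 of 3 members, compared with 9.48% of the 14666 genes tested (4.32% upward and 5.17% downward), and 12.3% of genes were higher in CAC mice without overlap of the groups.

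Foxo4, the third member expressed in muscle, was not called. It measured 133, 118, 121 and 106 CPM in NOR mice and 141, 144, 113 and 135 CPM in CAC mice, and the groups overlapped. The fitted change was 1.12-fold, and its interval (0.94 to 1.33) lay below the fold limit of 1.5. Scaling by total counts gave 0.28 on the log2 scale and an FDR of 0.0423, and limma on log2(FPKM + 1) gave 0.28 and an FDR of 0.0312, both still under the fold limit, and on the deposited FPKM the CAC mice (60.3 to 63.7) lay above the NOR mice (48.1 to 53.7). Total-count scaling moved the median of all genes by 0.126. Relative to the median, Foxo4 was higher by 0.149 with TMM, by 0.142 with total counts, and by 0.19 on log2(FPKM + 1). Erythrocyte and neutrophil markers rose and fibroblast markers fell in the same mice, and their part in the FoxO values was not tested.

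**Figure D1:**
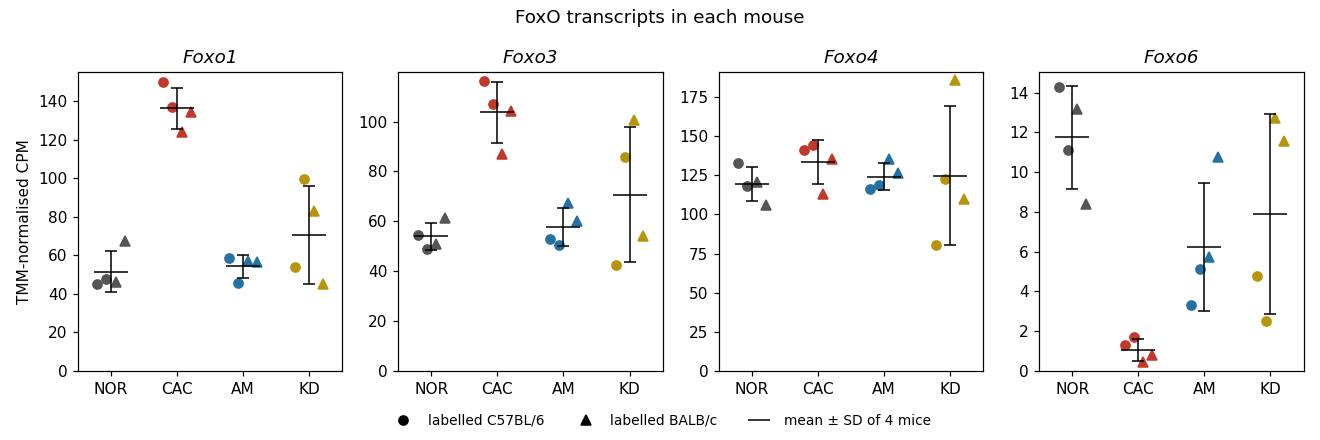
TMM-normalised CPM of Foxo1, Foxo3, Foxo4 and Foxo6 in each of the 16 mice, by group; circles are mice labelled C57BL/6, triangles mice labelled BALB/c, and bars the mean ± SD of 4 mice. Foxo1 and Foxo3 are high in all 4 CAC mice, Foxo4 overlaps between all groups, Foxo6 is lowest in the CAC mice, and the KD mice spread widely.

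Amiloride-treated muscle held lower Foxo1 and Foxo3 levels than untreated cachectic muscle. Foxo1 measured 58.7, 45.6, 57.1 and 56.5 CPM in AM-1 to AM-4, all below the lowest CAC mouse. The log2 change from CAC was -1.32 ± 0.11 (SE; FDR 0.00223), so that Foxo1 was 59.9% lower (95% interval of the fold 0.34 to 0.48). Foxo3 measured 53.1, 50.4, 67.5 and 60.0 CPM in AM mice and was 44.2% lower (interval 0.46 to 0.68; FDR 0.011), again without overlap. Foxo4 measured 116, 119, 135 and 126 CPM in AM mice, which lay within the range of the CAC mice, and its fold was 0.93 (0.79 to 1.09; FDR 0.62). Thus 2 of 3 members were called lower, compared with 2.09% of 14674 genes called lower, 1.63% called higher, 3.72% called in either direction, and 9.61% lower without overlap. CAC vs. NOR and AM vs. CAC share the same CAC mice, so these 2 comparisons are not independent. Fibroblast markers summed to 1810 to 2560 CPM in AM and 824 to 1320 CPM in CAC mice, with 2 of 5 called higher (Col1a1 and Col3a1), and 1 of 5 macrophage markers (Itgam) was called lower at overlapping sums (124 to 170 and 125 to 163 CPM). Their part in the FoxO values was not tested. The Foxo3 call in AM vs. CAC was lost when all 16 libraries were fitted together (FDR 0.0573) and when the 5 libraries low in lymphocyte markers were left out (FDR 0.0968), with the log2 change at -0.84 and -0.75. In each labelled strain alone, with 2 mice against 2, neither Foxo1 nor Foxo3 was called.

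The KD mice spread widely for these transcripts. Foxo1 measured 54.1, 99.8, 83.4 and 45.2 CPM in KD-1 to KD-4, each below the lowest CAC mouse. Its mean was 48.4% lower than in CAC mice (interval of the fold 0.35 to 0.76), yet the FDR was 0.267. The exact permutation test on Foxo1 alone gave the smallest p that 4 against 4 allows, 0.0286 (two-sided). Foxo3 measured 42.4, 85.9, 101 and 54.0 CPM, which overlapped the CAC mice (0.68-fold, interval 0.45 to 1.02, FDR 0.465). Foxo4 measured 80.2, 123, 186 and 110 CPM, from below to above every other mouse of the study. None of the 3 members was called, and across all genes only 0.00685% of 14593 were, although 3.37% were lower in KD mice without overlap and 11.1% had an unadjusted p below 0.05. By DESeq2 (FDR 0.0205) and in the fit of all 16 libraries (FDR 0.048) Foxo1 passed.

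On CPM, KD-2 and KD-3 had the higher Foxo1, Foxo3 and Foxo4 values of the group, and KD-1 and KD-4 the lower ones, whereas on the deposited FPKM Foxo4 was higher in KD-4 (50.3) than in KD-2 (46.1). The same 2 mice were the KD libraries with almost no lymphocyte markers (0.525 and 0.34 CPM, compared with 286 and 110 CPM in KD-1 and KD-4). Their fibroblast markers summed to 938 and 714 CPM, compared with 2770 and 3040 CPM, their macrophage markers to 47.8 and 29.7 CPM, compared with 231 and 226 CPM, and their adipocyte markers to 360 and 497 CPM, compared with 2480 and 2510 CPM. Muscle fibre markers went the other way, with 134000 and 141000 CPM in KD-2 and KD-3 and 84900 and 104000 CPM in KD-1 and KD-4, and erythrocyte markers were highest in KD-2 (21300 CPM, the other KD mice 2180 to 3920). The part of these cells in the KD values was not tested. KD-1 and KD-4 were left out in a fit chosen after the values were seen. Their CPM was the lowest of the group for each member, so higher values follow from that choice. Without these mice, the log2 change from CAC was -0.57 for Foxo1 (FDR 0.319), compared with -0.95 with all 4 mice, and -0.15 for Foxo3 and 0.21 for Foxo4 (FDR 0.675 and 0.642).

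The comparisons of AM and of KD mice with NOR mice, and of AM with KD mice, called no member and no gene at all (0% of 14738, 14748 and 14745 genes by edgeR). Foxo1 differed by 1.06-fold in AM vs. NOR (0.83 to 1.36) and Foxo3 by 1.08-fold (0.90 to 1.29). The Foxo1 interval reaches 1.36-fold, so equal levels were not shown. In KD vs. NOR the intervals were wider, from 0.91 to 2.07 for Foxo1 and from 0.88 to 1.94 for Foxo3. At an unadjusted p below 0.05, 9.19%, 3.54% and 1.11% of genes stood out in these 3 comparisons, and none of the members was among them.

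**Figure D2:**
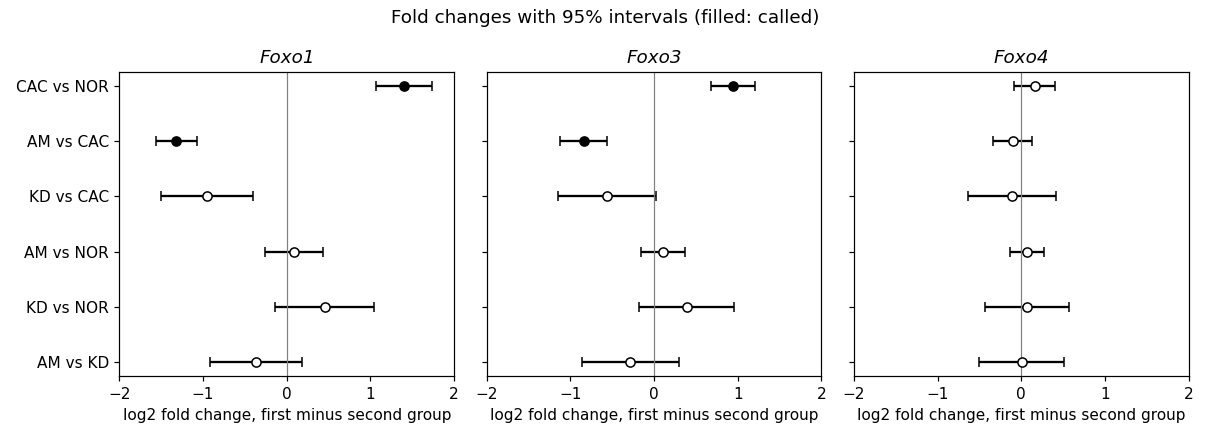
Log2 fold change of each member (first minus second group, horizontal axis) in the 6 comparisons (rows), with 95% intervals from the quasi-likelihood fit; filled points are called. Only Foxo1 and Foxo3 in CAC vs. NOR and AM vs. CAC are filled, and all 6 intervals of Foxo4 cross 0.

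Mean Foxo1 and Foxo3 were higher in CAC than in NOR mice in both labelled strains, but in mice labelled BALB/c alone neither gene was called. Among mice labelled C57BL/6, the mean CPM of Foxo1 was 143 in CAC and 46.3 in NOR, and among those labelled BALB/c 129 and 56.8. Foxo3 averaged 112 and 51.8 CPM in the first strain and 95.7 and 56.1 CPM in the second, with no overlap in either. Foxo4, which was not called, did not overlap in C57BL/6 mice either (143 CPM in CAC and 125 CPM in NOR). With 2 mice against 2, lack of overlap therefore does not set Foxo3 apart. The strain by condition interaction was not significant for any member in the 3 comparisons with CAC mice, and for no gene at all at this limit. Its lowest value for a member was that of Foxo3 in AM vs. CAC, where the fall was smaller in BALB/c by 0.51 on the log2 scale (interval 0.09 to 0.94), with an unadjusted p of 0.0256 and an FDR of 0.36 in the quasi-likelihood test. With 2 mice per strain and group, only large differences could be detected.

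The balance between the 3 transcripts shifted, which was tested on ratios within a library because these do not depend on how libraries are scaled. In NOR-1 to NOR-4, the FPKM ratio of Foxo1 to Foxo4 was 0.088, 0.105, 0.10 and 0.166, and in CAC-1 to CAC-4 it was 0.276, 0.247, 0.285 and 0.259. Each CAC mouse exceeded each NOR mouse, and the mean log2 ratio was higher by 1.26. The ratio of Foxo3 to Foxo4 was higher by 0.78, and that of Foxo1 to Foxo3 by 0.48. Foxo1 thus rose more than Foxo3, and both rose relative to Foxo4. In AM vs. CAC the log2 differences were -1.23, -0.74 and -0.48, and in KD vs. CAC -0.86, -0.47 and -0.39, in the same order of ratios. Within strains the KD differences were -0.44 in C57BL/6 and -1.28 in BALB/c mice for Foxo1 to Foxo4, and -0.077 and -0.70 for Foxo1 to Foxo3, and the difference between strains was not tested. All 9 tests had the smallest p of the exact permutation test (0.0286, two-sided, and 0.0286 after adjustment over the 9), since no groups overlapped. With every p at this floor, the adjustment could not change it. The tests are not independent, because the log2 ratio of Foxo1 to Foxo3 is fixed by the other ratios, and every comparison shares the CAC mice. For Foxo1 to Foxo3 the KD and CAC groups were separated by very little, with KD-1 at -1.27 and the lowest CAC mouse at -1.26.

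In shares of their summed FPKM, Foxo4 made up 67.8% ± 4.32 (SD, n = 4) of the NOR total, 53.0% ± 1.10 of that of CAC mice, 67.4% ± 1.43 with amiloride and 62.6% ± 4.39 with knock-down tumors. Foxo1 made up 7.66%, 14.1%, 7.69% and 9.40%, and Foxo3 24.5%, 32.9%, 25.0% and 28.0%. The sum of the 3 transcripts was 75.5 ± 3.61 FPKM in NOR and 117 ± 1.99 FPKM in CAC mice, compared with 82.9 ± 5.85 in AM mice and 83.5 ± 19.3 in KD mice. The shares depend on the transcript lengths used, and the differences of log2 ratios between groups do not.

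**Figure D3:**
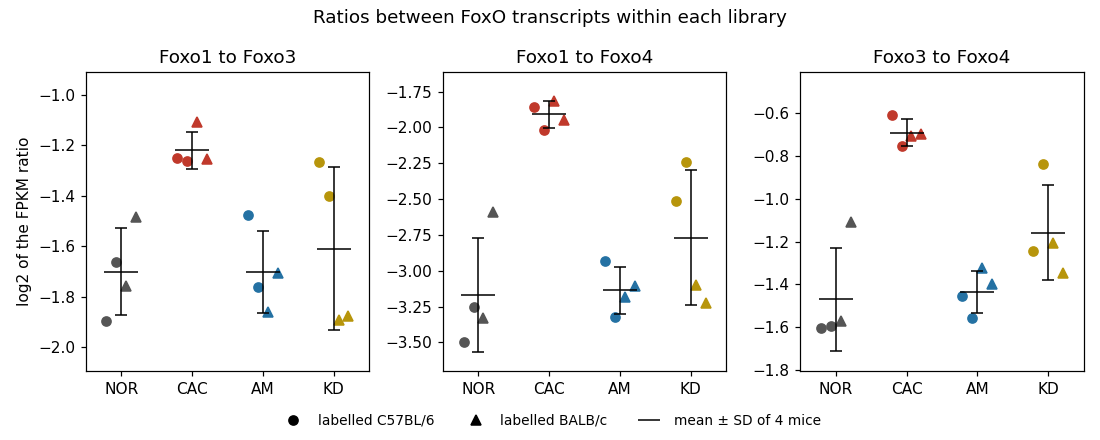
Log2 ratio of FPKM between pairs of members in each mouse, by group, with the mean ± SD of 4 mice; circles are mice labelled C57BL/6 and triangles mice labelled BALB/c. The CAC mice lie above the NOR, AM and KD mice in all 3 panels, by the smallest margin over the KD mice for Foxo1 to Foxo3.

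The fourth FoxO gene, Foxo6 (ENSMUSG00000052135), went the opposite way. It measured 14.3, 11.1, 13.2 and 8.40 CPM in NOR mice and 1.29, 1.69, 0.438 and 0.786 CPM in CAC mice, from 23 to 76 counts each. This was a fall of 91.1% (log2 change -3.49 ± 0.41, SE; FDR 0.00303). The change was -1.91 on log2(FPKM + 1), which understates changes of low genes, and the call was lost in BALB/c mice alone (-4.14, FDR 0.0954). In AM mice it measured 3.31, 5.12, 5.72 and 10.8 CPM, all above the CAC mice (log2 change 2.57, FDR 0.0276), and in KD mice 4.80, 2.50, 12.7 and 11.5 CPM, again above the CAC mice but with an FDR of 0.231. DESeq2 (FDR 0.000236) and the fit of all 16 libraries (FDR 0.0306) called Foxo6 in KD vs. CAC. Within strains, the log2 ratio of the mean CPM of Foxo6 was 1.5 in C57BL/6 and 3.75 in BALB/c mice for AM vs. CAC, and 1.29 and 4.31 for KD vs. CAC. The AM call was lost without CAC-1, CAC-4, AM-2, AM-3 or AM-4, at FDR values of 0.0631 to 0.0727, with labelled strain or the lymphocyte marker score as a covariate (FDR 0.0574 and 0.0637), and in each labelled strain alone (FDR 0.207 and 0.191). Of the other 40 forkhead genes in the table, 19 were tested in CAC vs. NOR, and none was called, compared with 9.48% of all genes, a share that is small for so few genes. Foxk1 had an FDR of 0.0464 but a log2 change of 0.37, below the fold limit, and Foxd2, at a mean of 0.773 CPM in CAC and 1.34 in NOR mice, passed the fold limit (log2 change -0.80) with an FDR of 0.0522; both were singled out after their values were seen. Other abundant forkhead genes, Foxn3 (84.1 and 97.5 mean CPM in CAC and NOR) and Foxj3 (46.7 and 46.4 CPM), were not called.

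Of 16 genes of the insulin and IGF-1 signal to Akt, 2 rose and 1 fell in CAC vs. NOR (18.8%, compared with 9.48% of all genes), and 13 were not called, with a median log2 change of 0.21, compared with 0.01 over all genes. Pik3r1, the regulatory subunit p85α of PI3K, measured 59.6, 59.4, 41.8 and 131 CPM in NOR mice and 223, 261, 236 and 172 CPM in CAC mice. It was higher in each CAC mouse, by 3.05-fold (FDR 0.0189). Akt1, the kinase that phosphorylates FoxO proteins, rose by 1.93-fold (FDR 0.0111), from 113 ± 1.52 to 218 ± 53.9 CPM (SD, n = 4). Irs1, the docking protein that links the receptors to PI3K, fell from 102 ± 33.6 to 41.4 ± 4.87 CPM (FDR 0.0091). Akt2, the isoform tied to glucose uptake, had a log2 change of 0.03 (FDR 0.943), and Sgk1, a kinase related to Akt, one of 0.56 (FDR 0.0624). In AM vs. CAC, Pik3r1 (log2 change -1.77, FDR 0.00316) and Akt1 (-0.81, FDR 0.0392) fell and none rose, where 3.72% of all genes were called. In KD vs. CAC none of the 16 was called, where only 0.00685% of all genes were.

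Of 26 genes whose products modify or carry FoxO proteins, none was called in CAC vs. NOR, compared with 9.48% of all genes. The 2 most abundant were the 14-3-3 genes Ywhae (359 ± 26.1 CPM in NOR, 332 ± 40.4 in CAC) and Ywhag (453 ± 33.3 and 421 ± 52.4), with FDR values of 0.591 and 0.635. Cdk2, a cell cycle kinase named here because it was the only one of the 26 called in AM vs. CAC, was higher in AM mice by 0.62 on the log2 scale (FDR 0.049). Of 11 factors that act with FoxO proteins at DNA, 2 rose in CAC vs. NOR, against the same 9.48%. Cebpd, an acute-phase factor of the C/EBP family, measured 39.5, 31.5, 39.2 and 95.9 CPM in NOR mice and 458, 242, 290 and 405 CPM in CAC mice (log2 change 2.76, FDR 0.00522). Stat3, the factor downstream of IL-6, rose by 1.91-fold (FDR 0.0277), with CAC-4 at 295 CPM and the other CAC mice at 143 to 165 CPM. Ctnnb1 (β-catenin; log2 change -0.17, FDR 0.513) and Smad3 (-0.65, FDR 0.262) were not called. Only Cebpd of these 11 was called in AM vs. CAC, where it fell by 2.35 on the log2 scale (FDR 0.0032). These counts of 1 in 26 and 1 in 11 stand beside 3.72% of all genes called in AM vs. CAC.

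**Figure D4:**
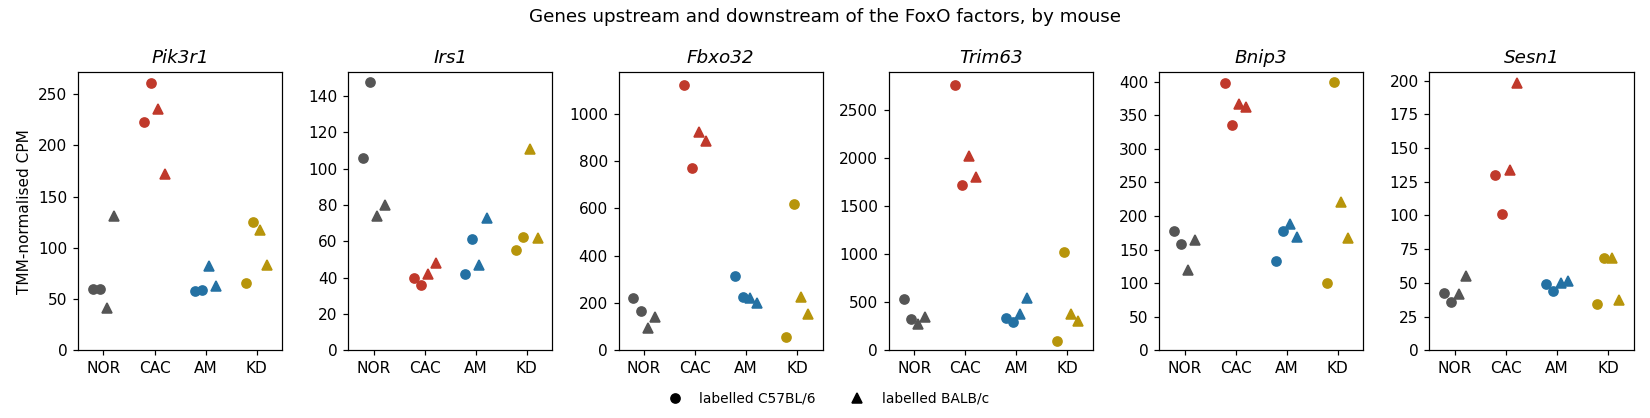
TMM-normalised CPM of 2 genes upstream of the FoxO factors (Pik3r1, Irs1) and 4 target genes (Fbxo32, Trim63, Bnip3, Sesn1) in each mouse, by group; circles are mice labelled C57BL/6 and triangles mice labelled BALB/c. The 4 CAC mice lie above all other mice for Pik3r1, Fbxo32, Trim63 and Sesn1, every CAC mouse lies below every NOR mouse for Irs1, and KD-2 is the highest of all mice for Bnip3.

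Of 44 genes known as FoxO targets, 14 rose and 1 fell in CAC vs. NOR (34.1%), compared with 9.48% of all genes. Their median log2 change was 0.44, and 33 of the 44 had a positive sign. In AM vs. CAC 12 fell and none rose (27.3%, compared with 3.72% of all genes), with a median of -0.39. In KD vs. CAC none was called by edgeR, which called only 0.00685% of all genes, and the median was -0.23. DESeq2 called 5 targets, beside 237 genes higher and 104 lower among all those in its fit. The list holds several genes by which cachexia is commonly measured, so its direction is not independent evidence. The AM count depended on the samples and the model: it was 8 with labelled strain as a covariate, 0 in each labelled strain alone, 7 without the 2 libraries highest in lymphocyte markers (AM-1 and CAC-3), 5 in the fit of all 16 libraries, and 1 without CAC-1 and CAC-4, which are low in them.

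Of 8 ubiquitin ligases and proteasome genes, 5 rose in CAC vs. NOR (62.5%, compared with 9.48% of all genes). Fbxo32 measured 222, 165, 93.1 and 140 CPM in NOR mice and 1123, 770, 924 and 885 CPM in CAC mice, a rise of 5.97-fold (3.92 to 9.10; FDR 0.00214). Trim63 rose by 5.66-fold (FDR 0.00214), from 366 ± 114 to 2073 ± 474 CPM. Fbxo31, another F-box ligase subunit, rose by 2.17-fold (FDR 0.00718), and Psmd11, a lid subunit of the 26S proteasome, by 1.72-fold (FDR 0.00376). The fifth, not named by the rule but completing the count, was the proteasomal ATPase Psmc4 (log2 change 0.67, FDR 0.0232). Zfand5, a ubiquitin-binding protein (log2 change 0.42, FDR 0.118), and the ligase subunit Fbxo21 (-0.20, FDR 0.697) were not called. The same 5 genes fell in AM vs. CAC, where 3.72% of all genes were called, among them Trim63 by 2.42 and Fbxo32 by 1.94 on the log2 scale.

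In KD mice, Fbxo32 measured 55.0, 619, 225 and 154 CPM and Trim63 99.1, 1024, 377 and 301 CPM. Each was below every CAC mouse, with KD-2 far above the other 3, and the FDR values were 0.351 and 0.277. KD-2 also had the highest Foxo1 value of the KD mice, whereas Foxo3 and Foxo4 were highest in KD-3.

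Of 14 autophagy genes, 4 rose in CAC vs. NOR (28.6%, compared with 9.48% of all genes). Bnip3, a mitophagy receptor, rose from 155 ± 25.3 to 366 ± 25.8 CPM (2.36-fold, FDR 0.00272). Ctsl, the lysosomal protease cathepsin L, rose by 2.22-fold (FDR 0.0408), Map1lc3b, which codes for LC3B of the autophagosome membrane, by 1.83-fold (FDR 0.00988), and its relative Gabarapl1 by 1.56-fold (FDR 0.0223). Sqstm1, the cargo receptor p62, had an FDR of 0.0502 and was not called. Map1lc3a, the LC3A gene, had an FDR of 0.0443 but a change of 1.47-fold, below the limit. In AM vs. CAC, Bnip3 (log2 change -1.13), Map1lc3b (-0.72) and Map1lc3a (-0.67) fell, which is 21.4% of the list compared with 3.72% of all genes.

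Of 6 metabolic targets, 2 rose in CAC vs. NOR (33.3%, compared with 9.48% of all genes). Eif4ebp1, an inhibitor of cap-dependent translation, rose 5.27-fold (FDR 0.00214), from 66.4 ± 12.8 to 350 ± 106 CPM, and fell by 2.08 on the log2 scale in AM vs. CAC (FDR 0.00552). Lpin1, a phosphatidate phosphatase, rose 1.66-fold (FDR 0.0456) although its groups overlapped, and it fell in AM vs. CAC (log2 change -0.67, FDR 0.0473). Thus 2 of the 6 were called lower in AM vs. CAC (33.3%, compared with 3.72% of all genes called). Pdk4, a pyruvate dehydrogenase kinase, measured 427, 477, 89.3 and 218 CPM in NOR mice and 1465, 388, 575 and 1474 CPM in CAC mice. Its groups overlapped and it was not called (log2 change 1.69 ± 0.60, SE; FDR 0.102). Lpl, lipoprotein lipase, was not called either (0.72, FDR 0.183).

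Of 16 stress and cell cycle targets, 3 rose and 1 fell in CAC vs. NOR (25%, compared with 9.48% of all genes). Cdkn1a, the cell cycle inhibitor p21, rose from 14.2 ± 2.93 to 108 ± 64.9 CPM (log2 change 2.93, FDR 0.00543). Sesn1, a sestrin that restrains mTORC1, rose from 43.9 ± 7.97 to 141 ± 41.1 CPM (3.21-fold, FDR 0.00403), and Gadd45a, a stress gene linked to muscle atrophy, by 2.15-fold (FDR 0.0102). Bcl6, a transcriptional repressor, fell from 104 ± 14.4 to 51.9 ± 15.9 CPM (FDR 0.0222). Pink1, a mitophagy kinase (log2 change 0.08, FDR 0.84), and Txnip, an inhibitor of glucose uptake (-0.03, FDR 0.958), were not called. In AM vs. CAC, Sesn1 (-1.53) and Gadd45a (-1.32) fell (12.5%, compared with 3.72% of all genes).

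**Figure D5:**
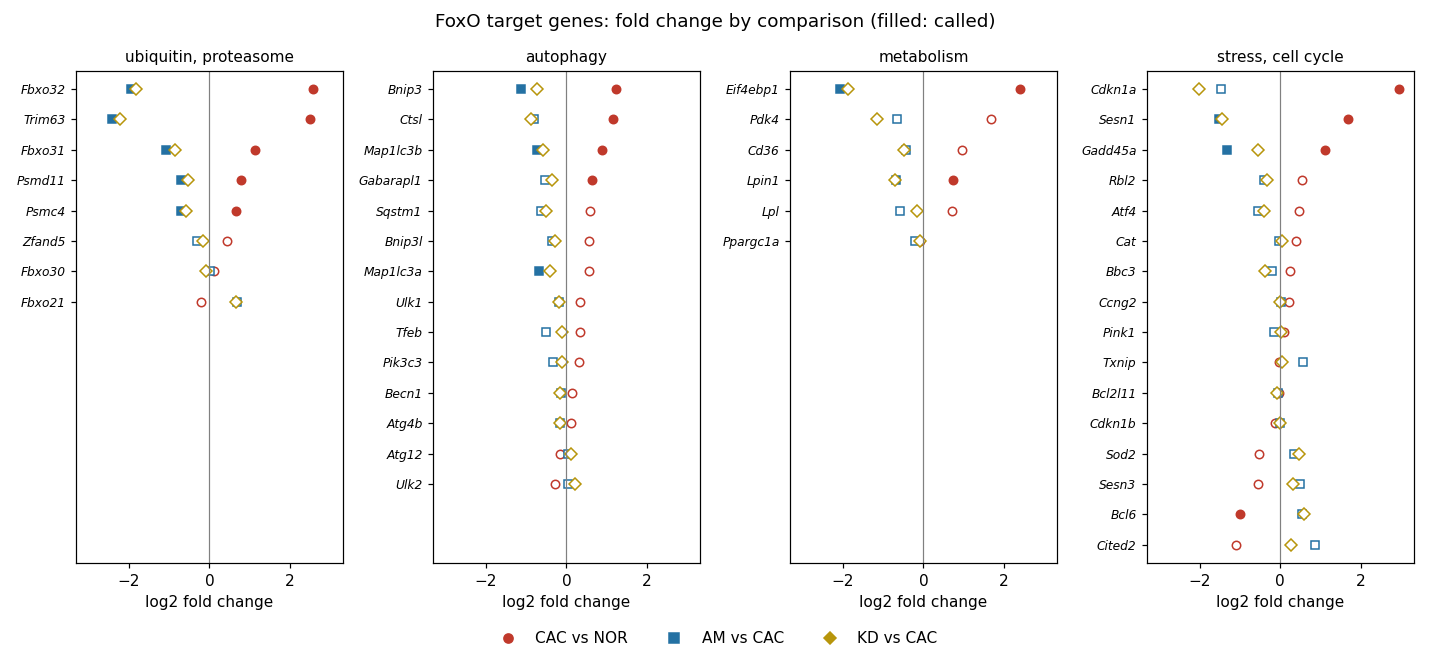
Log2 fold change (horizontal axes) of 44 FoxO target genes in 4 groups, each row a gene, for CAC vs. NOR (circles), AM vs. CAC (squares) and KD vs. CAC (diamonds), which share the CAC mice; filled symbols are called. In CAC vs. NOR 14 genes are filled on the right and 1 on the left, in AM vs. CAC 12 on the left, and in KD vs. CAC none.

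Across the 16 libraries, the genes most like each member were sought among 9013 genes with a mean of at least 10 CPM, by Pearson's r on log2 CPM. These r values describe libraries that share groups and scaling, and no p is given. For Foxo1 they were Nmt1, an N-myristoyltransferase (r = 0.942), Wdr55 (0.94), Sesn1 (0.936), Pik3r1 (0.933), and Arrdc3 (0.93), an arrestin-domain gene. After removing group means, r was 0.696 to 0.802 for these 5 genes, the lowest being that of Pik3r1 and Arrdc3. Arrdc3 measured 42.9, 31.5, 42.0 and 76.5 CPM in NOR mice and 345, 225, 203 and 183 CPM in CAC mice, and among KD mice it was highest in KD-2 (141 CPM), like Foxo1, but lowest in KD-1 (29.1 CPM), where Foxo1 was lowest in KD-4.

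For Foxo3 the nearest were Tle1, a Groucho-type corepressor (r = 0.947), Actr8, an actin-related chromatin protein (0.945), Ank3, ankyrin-G (0.944), Bsdc1 (0.944) and Sgms1, a sphingomyelin synthase (0.944). For Foxo4 they were Cmya5, the muscle protein myospryn (r = 0.939), Ubap2 (0.922), Ipmk, an inositol phosphate kinase (0.92), Arl8b, a lysosomal GTPase (0.915), and Trpc4ap (0.913). After removing group means, r was 0.853 to 0.904 for the Foxo3 list and 0.914 to 0.947 for the Foxo4 list. Each of the 5 genes of the Foxo4 list was lowest in KD-1 and highest in KD-3, like Foxo4 itself. They were picked for likeness over these same libraries, so the shared extremes follow from the choice. Between the members, r was 0.925 for Foxo1 and Foxo3, 0.677 for Foxo3 and Foxo4, and 0.38 for Foxo1 and Foxo4. After removing group means these became 0.799, 0.845 and 0.414.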

How the data were processed

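mRNA of 16 gastrocnemius samples, enriched with oligo(dT) beads, was sequenced. The authors deposited whole-number counts per gene, not normalised, and FPKM computed with 1 length per gene; the submitters' processing notes name fastp, Bowtie2, HISAT2, StringTie 1.3.1, GRCm38 and mm9. The counter and strandedness are not given in the sources used here. Groups came from the sample titles, except AM, which came from the labelled treatment (AM-1 to AM-4 are titled T-1 to T-4), and strains came from the labels. Each of 6 pairs of groups was compared with edgeR 4.0.16 in R 4.3.3 (filterByExpr, TMM, quasi-likelihood F test, no covariate) on its 8 libraries over all genes passing the filter, with Benjamini-Hochberg adjustment. Standard errors are the absolute log2 change over the square root of F, intervals are 95%, and the log2 CPM used for likeness had a prior count of 2. Single values and FPKM ratios were compared by exact permutation over 70 arrangements. The replicates are separate mice, and no 2 libraries of a group agreed within counting error. NOISeq, the authors' tool, was not used here.

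The members and gene lists were chosen with earlier results of these data known. Named genes were the members, Foxo6, called forkhead genes, up to 4 called genes per list with the largest change in CAC vs. NOR (mean CPM of at least 1), up to 2 uncalled genes per list with the highest FPKM, and the 5 genes most like each member. Of the identifiers, 21905 matched GENCODE M21. Promoters of Foxo4 and Foxo6 and protein sequences were not analysed here. The fit was tested on simulated data. Alternatives tried were other scalings, tools (DESeq2 1.42.0, limma 3.58.1), filters, covariates, FPKM, subsets and leaving out each mouse.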

Additional observations from a re-analysis of the deposited data

Results flagged for a closer look

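Of 212 sets of 4 mice examined (the members, Foxo6, their ratios and the named genes in each group), 13 had a mouse whose gap to the nearest other mouse, over the group's range, passed Dixon's 95% critical value, which chance alone passes in about 1 in 20 sets, so the number is near what chance gives. For the members these were Foxo1 in NOR-4 (67.4 CPM, the others 45 to 47.6) and in AM-2 (45.6 CPM, the others 56.5 to 58.7), the log2 ratio of Foxo1 to Foxo3 in CAC-3 (-1.11, the others -1.26 to -1.25) and that of Foxo3 to Foxo4 in NOR-4 (-1.11, the others -1.61 to -1.57). NOR-4 stood nearest to the CAC mice for both ratios to Foxo4 and for Foxo1, and it stood apart for Cebpd as well (95.9 CPM, the others 31.5 to 39.5).

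Cebpd in KD-2 (327 CPM) was above the other KD mice (32.8 to 64.1 CPM) and within the CAC range. Irs1 was high in KD-3 (111 CPM, the others 55.4 to 62.5), Sgk1 in AM-4 (348 CPM, the others 154 to 177), Stat3 in CAC-4 (295 CPM, the others 143 to 165), Map1lc3a in NOR-1 (210 CPM, the others 155 to 164) and Actr8 in NOR-1 (34.6 CPM, the others 29.2 to 29.6). Ctnnb1 (245 CPM, the others 324 to 329) and Ipmk (22.9 CPM, the others 26 to 26.2) were low in CAC-3.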

How the results depend on the processing

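The fold changes of Foxo1 and Foxo3 in CAC vs. NOR and AM vs. CAC kept their direction under every alternative, from 1.18 to 1.67, 0.76 to 1.15, -1.46 to -1.20 and -1.11 to -0.60, and leaving out any 1 mouse ended none of these 4 calls. With 2 mice against 2, calls were lost for BALB/c in CAC vs. NOR (Foxo1 1.18, Foxo3 0.76) and for both strains in AM vs. CAC (Foxo1 -1.46 in C57BL/6 and -1.20 in BALB/c, Foxo3 -1.11 and -0.60), a design with fewer samples, and the target counts fell to 5 and 0 in CAC vs. NOR and to 0 and 0 in AM vs. CAC. Without the 5 libraries low in lymphocyte markers, an alternative chosen after the data were seen, Foxo3 was not called in CAC vs. NOR (0.85, FDR 0.0514) or AM vs. CAC (-0.75), and 1 target was called in AM vs. CAC. The fit of all 16 libraries gave -0.84 for Foxo3 and 5 targets in AM vs. CAC, and -0.95 for Foxo1 (called) and 2 targets in KD vs. CAC. DESeq2 gave -0.94 for Foxo1 (called) and 5 targets in KD vs. CAC. Without AM-1 and CAC-3, 7 targets were called in AM vs. CAC. Leaving out 1 mouse gave 10 to 18 targets in CAC vs. NOR and 8 to 11 in AM vs. CAC. The cause of these changes was not tested.

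Same-numbered mice mostly did not deviate together (r from -0.64 to 0.60 in 24 pairs of libraries, above 0.1 in 6). This check takes all genes at once, so it cannot decide whether the numbers pair the mice. With the replicate number as a block in edgeR, Foxo1 (-1.32, FDR 0.0734) and Foxo3 (-0.84, FDR 0.138) were not called in AM vs. CAC, nor was any target (0, compared with 12), and the Foxo6 call was lost (FDR 0.162), whereas in CAC vs. NOR 15 targets were called and no call of a member or Foxo6 changed.

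Foxo4 changed sign in AM vs. CAC for BALB/c alone (0.065), in KD vs. CAC for BALB/c alone (0.23), without KD-1 and KD-4 (0.21) and without KD-1 (range without 1 mouse -0.34 to 0.043), in AM vs. NOR for C57BL/6 alone (-0.061), in KD vs. NOR with the lymphocyte score as a covariate (-0.16), for C57BL/6 alone (-0.27) and without KD-3 (-0.17, range to 0.22), and in AM vs. KD with RLE scaling or DESeq2 (-0.0005 each), all 16 libraries (-0.0059), BALB/c alone (-0.17) and without AM-3 (-0.03), AM-4 (-0.0035), KD-1 (-0.15), KD-2 (-0.0089) or KD-4 (-0.05), with a range up to 0.24; none of these values was called. Other uncalled values that changed sign were Foxo1 in AM vs. NOR for BALB/c alone (-0.024), Foxo3 in AM vs. KD with the lymphocyte score (0.19), and Foxo6 in KD vs. NOR for BALB/c alone (0.15) and in AM vs. KD for C57BL/6 alone (0.20). Within strains, the log2 ratios moved by more than the spread between mice in KD vs. CAC for Foxo1 to Foxo3 (-0.077 in C57BL/6, -0.70 in BALB/c) and Foxo1 to Foxo4 (-0.44 and -1.28), and in AM vs. CAC for Foxo3 to Foxo4 (-0.83 and -0.66). Calls over all genes in CAC vs. NOR were 633 up and 758 down with TMM, 959 and 621 with total counts, 955 and 670 on log2(FPKM + 0.1), 817 and 508 on log2(FPKM + 1), and 523 and 924 with upper-quartile scaling, and in AM vs. CAC 239 and 307 with TMM and 279 and 235 with upper-quartile scaling. Over all genes, DESeq2 called 237 up and 104 down in KD vs. CAC and the fit of all 16 libraries 90 and 55, compared with 1 by edgeR.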

Other observations

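The annotation column of the deposited table places 129 genes other than Foxo1, Foxo3 and Foxo4 in the KEGG FoxO signaling pathway, a list used after the data had been seen. Of the 116 tested in CAC vs. NOR, 11 rose and 6 fell (14.7%, compared with 9.48% of all genes), with a median log2 change of 0.02. Of the 115 tested in AM vs. CAC, 2 rose and 5 fell (6.09%, compared with 3.72%). Of the 114 in KD vs. CAC none was called by edgeR, which called only 0.00685% of all genes there. The 44 target genes had 34.1% called in CAC vs. NOR, and the difference between these lists was not tested.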
